A study of Mus musculus with 2 samples.

Results

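Mptx2, Ang4, Mmp7 and Pnliprp2 are 4 of the 13373 genes measured by droplet single-cell RNA sequencing in mouse intestinal organoids with a mutation in Apc. They were taken by name, as products ascribed to Paneth cells that are not defensins, and all 4 were in the table. Both groups were C57Bl organoids, small cultures grown from intestinal tissue, with an age of 3 to 4 months in the labels, and both carried the Apc mutation. The titles give 1 library treated with DBZ, which blocks gamma-secretase and with it the release of the active part of Notch receptors, and 1 treated with its vehicle, DMSO. The treatment text, the same for both, lists 300 nM 4-OH-tam (4-hydroxytamoxifen) and 10 uM DBZ, and the titles were followed. The labels name neither the Apc allele nor the driver of any recombinase, and do not say how many animals gave the tissue. With 1 library per group no test was made. Every difference is between 2 libraries, and every interval covers counting error only.

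Paneth cells sit at the base of small intestinal crypts and release granules of antimicrobial proteins. Alpha-defensins, the Defa genes, are the best known of these. Wnt signalling promotes the maturation of Paneth cells, whereas Notch signalling holds cells back from secretory fates. Ang4 (angiogenin 4) is a secreted ribonuclease with antimicrobial activity. Mmp7 (matrilysin) is a secreted metalloproteinase that cuts pro-defensins into their active form in the mouse, and it is also a known target of beta-catenin in intestinal tumours. Mptx2 (mucosal pentraxin 2) belongs to the pentraxins, secreted proteins that bind microbes and cell debris. Pnliprp2 (pancreatic lipase related protein 2) splits milk fat and galactolipids, and is best known from the exocrine pancreas.

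In GENCODE M21 on GRCm38 (mm10) each of the 4 is a protein coding gene with 1 transcript. Mptx2 lies on chromosome 1, 173274382 to 173277777, minus strand, with 2 exons. Ang4 lies on chromosome 14, 51763878 to 51773590, minus strand, also with 2 exons. Mmp7 lies on chromosome 9, 7692090 to 7699585, plus strand, with 6 exons. It overlaps an antisense gene, AV064505, that has no row here. Pnliprp2 lies on chromosome 19, 58759719 to 58777534, plus strand, with 12 exons. Mmp7 lies 17111 bases from Mmp20, and Pnliprp2 lies 15550 bases from its relative Pnliprp1. Of the 704 words of 91 bases (the length of the sequenced transcript read) in Mptx2, 41 (5.82%) also occurred in Mptx1, so a few reads of this pair could not be told apart. The other members shared none with any gene.

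The 250 bases before each start site, from RefSeq on GRCm38.p6, are printed because the members differed in where their transcripts lay. Ang4 and Mmp7 had their highest cluster mean in 1 cluster of defensin cells in both libraries. Pnliprp2 did too but had most of its DMSO UMIs elsewhere. Mptx2 was highest in other clusters, which differed between the libraries. Capitals mark matches to 3 motifs. The first, searched on the gene's strand only, is the box of core promoters that is spelled TATANA here. The second is CTTTG or its reverse complement, the core that factors of the Wnt pathway bind. The third is TGANTCA on either strand, which Fos and Jun factors (AP-1) bind. All 4 genes were found in the promoter table. The windows are chr1:173277757-173278006 (minus strand), chr14:51773591-51773840 (minus), chr9:7691840-7692089 (plus; the table holds 2 windows for Mmp7) and chr19:58759473-58759722 (plus), and each sequence runs 5′ to 3′ on the gene's strand.
Ang4: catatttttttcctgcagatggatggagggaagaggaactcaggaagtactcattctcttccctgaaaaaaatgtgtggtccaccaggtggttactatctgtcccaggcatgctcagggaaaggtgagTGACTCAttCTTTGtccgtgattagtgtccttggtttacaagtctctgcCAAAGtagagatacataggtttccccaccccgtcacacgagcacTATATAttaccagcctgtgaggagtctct
Mmp7: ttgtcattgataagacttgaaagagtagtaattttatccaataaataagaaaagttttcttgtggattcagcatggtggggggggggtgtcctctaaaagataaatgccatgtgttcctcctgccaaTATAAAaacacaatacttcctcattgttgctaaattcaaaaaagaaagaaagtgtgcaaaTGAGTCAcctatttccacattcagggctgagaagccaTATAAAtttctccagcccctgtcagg
Mptx2: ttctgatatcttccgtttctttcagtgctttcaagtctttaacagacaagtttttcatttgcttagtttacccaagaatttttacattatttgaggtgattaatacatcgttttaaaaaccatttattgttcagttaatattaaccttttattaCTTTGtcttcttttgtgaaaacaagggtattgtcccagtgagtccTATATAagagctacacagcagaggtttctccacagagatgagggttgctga
Pnliprp2: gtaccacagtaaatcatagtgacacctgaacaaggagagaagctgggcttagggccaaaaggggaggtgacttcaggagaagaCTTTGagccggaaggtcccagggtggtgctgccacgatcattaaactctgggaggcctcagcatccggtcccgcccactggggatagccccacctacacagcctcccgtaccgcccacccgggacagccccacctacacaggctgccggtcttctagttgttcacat
Ang4 had TATATA at 29 to 24 bases before the start, and Mmp7 had TATAAA at 26 to 21 and again at 123 to 118. Mptx2 had TATATA at 51 to 46 before its RefSeq start, which is 30 to 25 before its GENCODE start. For Mptx2 the RefSeq start lies 21 bases inside the GENCODE model, for Pnliprp2 4 bases inside, and for the others the starts are the same. Pnliprp2 had no TATANA match. TATANA occurred in 16.4% of 32851 mouse promoters of this length. The AP-1 letters, present in 6.75% of promoters, occurred in Ang4 (TGACTCA, 122 to 116) and in Mmp7 (TGAGTCA, 63 to 57), and in neither of the others. CTTTG, present on either strand in 48.6% of promoters, occurred 2 times in Ang4, 1 time each in Mptx2 and Pnliprp2, and not in this window of Mmp7. GC content was 33.2% for Mptx2, 38% for Mmp7, 46.4% for Ang4 and 58.4% for Pnliprp2, against a median of 52.4%. No match overlapped another. These motifs were picked after the sequences were seen, and a match is a description of letters, not of a bound site.

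The DBZ library held 1241 cells with a median of 10901 UMIs (unique molecular identifiers, so that each transcript counts 1 time), and the DMSO library 968 cells with a median of 11183. The libraries shared 3 cell barcodes. A level is the number of UMIs per 10000 UMIs of a cell, averaged over cells, and a change is log2 of the DBZ mean over the DMSO mean with 0.05 added to each. The median change was 0.10 over the 12921 detected genes, those with a UMI in 1% or more of DBZ or of DMSO cells. A cell counted as defensin-rich where the 11 named Defa genes summed to at least 100 per 10000. This threshold reads none of the 4 members and marks a range, not a cell type. It took 235 DBZ cells (18.9%, exact 95% interval 16.8 to 21.2%) and 33 DMSO cells (3.41%, 2.36 to 4.75%). Just below it, from 70 to 100 per 10000, lay 8 DBZ and 2 DMSO cells, and just above it, from 100 to 150, lay 14 and 2. The remaining cells are called cells under the threshold. They were not free of Defa UMIs, with a median summed level of 13.5 per 10000 with DBZ and 1.94 with DMSO. Defensin-rich cells held 95.7 and 95.8% of all Defa UMIs.

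Over all cells 3 of the 4 genes were higher in the DBZ library and 1 was lower. Ang4, Mmp7 and Mptx2 were each higher by a log2 change of 1 or more, as were 1.89% of all detected genes, and Pnliprp2 was lower by as much, as were 1.04%. Counted from the highest change, Mptx2 was number 11, Ang4 34, Mmp7 155 and Pnliprp2 12852 of 12921. When cells were split by the defensin threshold the 4 genes parted. Inside defensin-rich cells Ang4 and Mmp7 were not higher with DBZ by their means over all such cells, while Mptx2 stayed higher and Pnliprp2 lower both inside and outside.

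**Figure D1:**
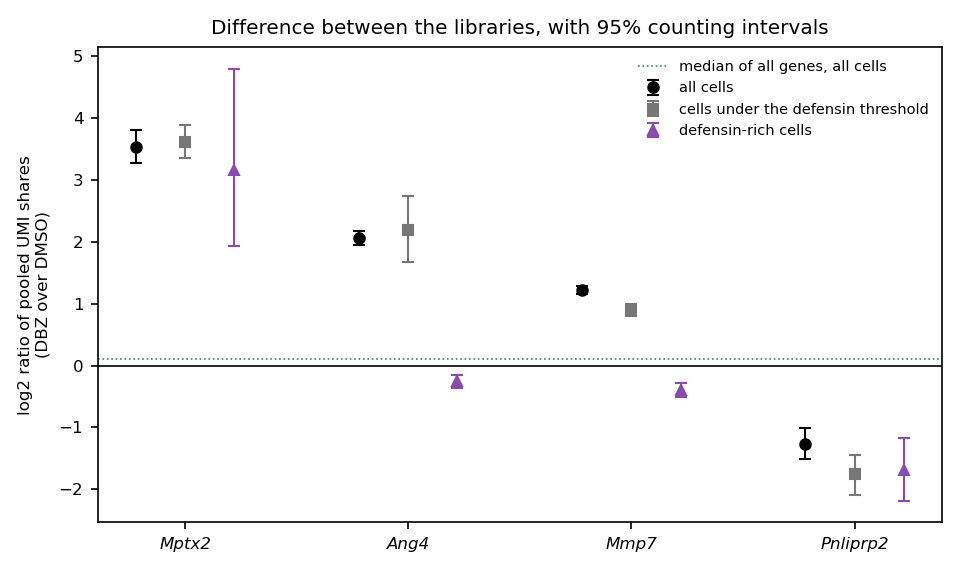
Log2 ratio of pooled UMI shares, DBZ over DMSO, for each gene in all cells (circles), cells under the defensin threshold (squares) and defensin-rich cells (triangles); bars are 95% counting intervals and the dotted line is the median change of all genes, 0.10. Ang4 and Mmp7 lie above 0 in all cells and below 0 in defensin-rich cells (-0.26 and -0.40), Mptx2 lies above 0 in every class and Pnliprp2 below 0 in every class.

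Ang4 was a gene of few cells with very high levels. With DBZ the level was 0 in the median cell and 334 in the highest, with a mean of 2.15 per 10000. In the DMSO library it was 0 in the median cell and 190 in the highest, with a mean of 0.423. The change was 2.22, and pooled UMIs (4430 against 860) gave 2.06 with a 95% interval of 1.95 to 2.17. Ang4 UMIs were seen in 256 DBZ cells (20.6%, 18.4 to 23.0%) and 46 DMSO cells (4.75%, 3.50 to 6.29%). After each cell was thinned to 5000 UMIs the shares were 11.3 and 2.17%. Cells at 10 or more per 10000 numbered 42 with DBZ and 5 with DMSO, and all of them were defensin-rich. Those 5 DMSO cells gave 91.4% of the DMSO mean, and the highest alone gave 46.5%, so the size of the change rests on them. Without the highest cell of each library the change was 2.81, and without the 5 highest of each it was 4.00.

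Inside defensin-rich cells the mean of Ang4 was 10.8 per 10000 with DBZ and 11.5 with DMSO, a change of -0.09. Pooled UMIs, 4251 against 822, gave -0.26 (-0.36 to -0.15). The 33 DMSO cells carried this comparison thinly. Of their Ang4 mean 50% came from 1 cell and 98.4% from 5, and the sign turned without that cell of each library (0.66) and after thinning (0.12). Defensin-rich DMSO cells were also deeper, with a median of 16140 UMIs against 11735, and held more of the 22 mitosis transcripts, summing to 6.92 per 10000 against 2.58 (21 of 22 lower with DBZ). The part of these differences in the Ang4 values was not tested. Defensin-rich cells gave 94.9% of the Ang4 mean with DBZ and 92.9% with DMSO. DMSO levels inside and outside, weighted by the DBZ share of defensin-rich cells, would average 2.21, next to the 2.15 measured with DBZ. The level inside comes from the 33 DMSO cells, where 1 cell gave 50% of it. For Mptx2 the same sum was 0.103 against 0.983 measured, and for Pnliprp2 0.435 against 0.122. The part of the share of defensin-rich cells in the changes was not tested.

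Below the threshold Ang4 was seen as single UMIs. Of 156 such DBZ cells with Ang4, 139 had exactly 1 UMI, and the highest level was 2.62 per 10000. In the DMSO library 33 of 35 had exactly 1. Means were 0.137 and 0.0311, a change of 1.20, where 1.83% of genes were higher by 1 or more. Pooled UMIs (179 against 38) gave 2.19 (1.68 to 2.73). Droplets take up free RNA from other cells, which gives all classes of cell a low share and keeps the genes of 1 source in 1 ratio. In the DBZ library there were 9.56 Ang4 UMIs per 1000 Defa UMIs inside defensin-rich cells and 8.96 outside them, an outside to inside ratio of 0.937 (0.803 to 1.09). In the DMSO library the values were 11.2 and 11.9, a ratio of 1.06 (0.747 to 1.47). Both intervals include 1. The share of DBZ cells with Ang4 was 15.5% under the threshold and 16.8% (9.94 to 25.9%) in the enteroendocrine-like cluster, whose median depth was 8042 UMIs against 10712.5 and where some cells were defensin-rich. It was 23.5% in the cluster of dividing cells (cluster 6 below), which had a median of 18827.5 UMIs. After thinning these shares were 6.36% under the threshold, 13.7% in the enteroendocrine-like cluster and 5.88% in the dividing cells, so the value under the threshold lay between those of the clusters. The Defa genes themselves did not all keep 1 ratio, with 0.575 for Defa22 and 1.54 for Defa24 outside against inside in the DBZ library. No expression is read from these single UMIs, and the part of free RNA in them was not tested.

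Mmp7 was also highest in defensin-rich cells, but it reached far beyond them. In the DBZ library its level was 0.932 in the median cell and 90.2 in the highest, with a mean of 3.39 per 10000. In the DMSO library the median cell was at 0, the highest at 84.9 and the mean at 1.44. The change was 1.20, and pooled UMIs (6357 against 2204) gave 1.22 (1.15 to 1.29). The share of cells with an Mmp7 UMI was 60.8% with DBZ (58.1 to 63.6%) and 49.9% with DMSO (46.7 to 53.1%), or 43.9 and 29.4% after thinning. No small set of cells carried the mean, since the 5 highest gave 9.30% of it with DBZ and 19.8% with DMSO.

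Under the threshold the mean of Mmp7 was 1.97 per 10000 with DBZ and 1.04 with DMSO, a change of 0.88 where the median gene had 0.12. Pooled UMIs, 2752 against 1433, gave 0.89 (0.80 to 0.99). Outside defensin-rich cells Mmp7 ranked 354 of 12791 genes from the highest change. Unlike Ang4, it did not follow the Defa genes there. Mmp7 UMIs per 1000 Defa UMIs were 8.11 inside and 138 outside in the DBZ library, a ratio of 17.0 (16.2 to 17.9), and 10.5 and 450.5 in the DMSO library, a ratio of 42.7 (39.1 to 46.7). Cells under the threshold gave 1.59 of the DBZ mean of 3.39, and 1.01 of the DMSO mean of 1.44.

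Inside defensin-rich cells the order of the libraries turned. Mmp7 averaged 9.49 with DBZ and 12.7 with DMSO, a change of -0.42, and pooled UMIs (3605 against 771) gave -0.40 (-0.51 to -0.29). Its median was 2.58 in the 235 DBZ cells and 3.22 in the 33 DMSO cells, and 75.7% (69.7 to 81.1%) and 69.7% (51.3 to 84.4%) of them had an Mmp7 UMI. On the DMSO side 65.7% of the mean came from 5 cells. Without the 5 highest cells of each library, which takes 5 of 33 cells on one side and 5 of 235 on the other, the change was 0.63. DMSO levels inside and outside, weighted by the DBZ share of defensin-rich cells, would average 3.26, next to the 3.39 measured with DBZ. That sum joins a higher level inside (12.7 against 9.49) and a lower level outside (1.04 against 1.97), so the 2 nearly equal means do not come from like levels.

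**Figure D2:**
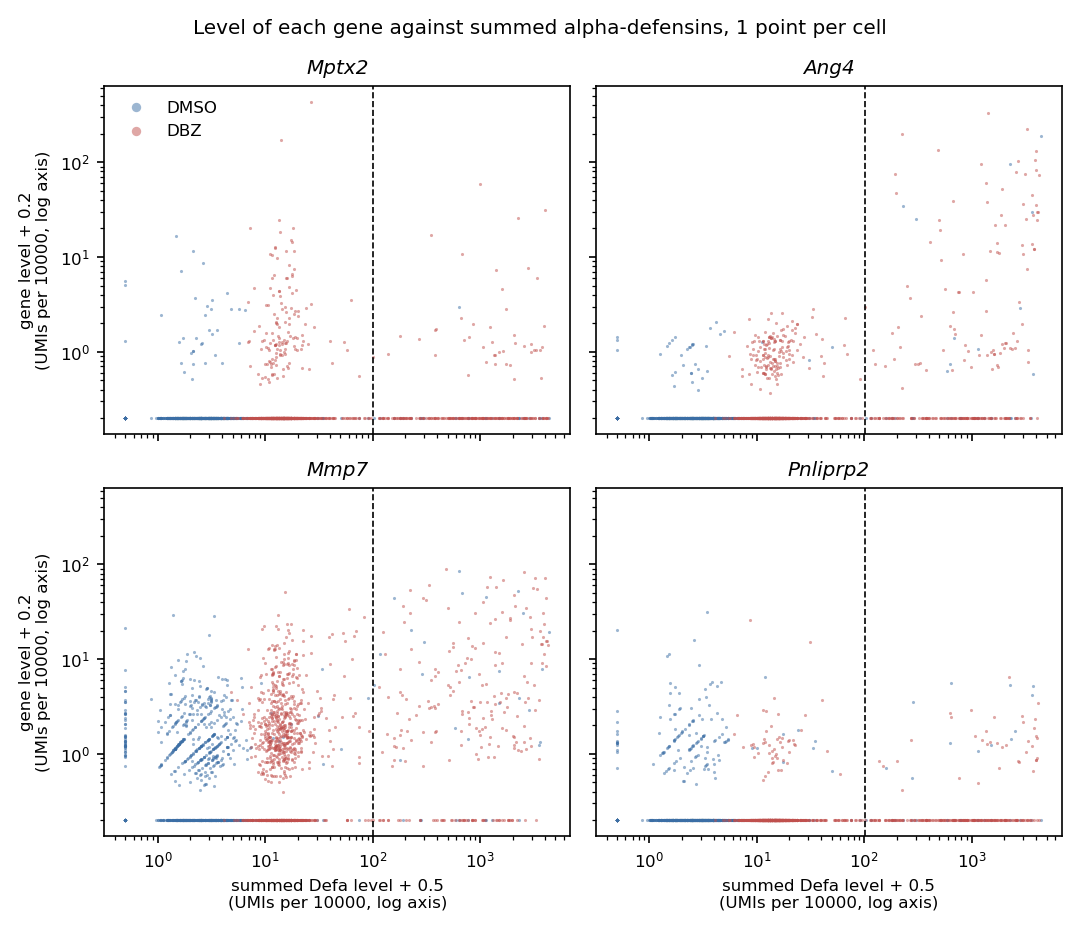
Level of each gene (vertical, plus 0.2, log axis) against the summed level of the 11 Defa genes (horizontal, plus 0.5, log axis), both in UMIs per 10000; each point is a cell, the dashed line is the threshold of 100, and points on the lowest row hold no UMI of the gene. High Ang4 cells lie right of the line only, Mmp7 spreads over the whole range and is highest on the right, the 2 highest Mptx2 cells lie left of the line and most Pnliprp2 points are DMSO cells on the left.

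With all cells kept, Mptx2 had the largest change of the 4 genes, and most of it lay outside defensin-rich cells. Among DBZ cells the level was 0 in the median cell, 434 in the highest, 172 in the next and 58.8 in the one after, with a mean of 0.983 per 10000. In the DMSO library the median cell was at 0, the highest at 16.4 and the mean at 0.106. The change was 2.72, and pooled UMIs (1842 against 129) gave 3.53 (3.27 to 3.8). Mptx2 UMIs were seen in 187 DBZ cells (15.1%, 13.1 to 17.2%) and 37 DMSO cells (3.82%, 2.71 to 5.23%), or in 8.30 and 2.17% after thinning. The highest DBZ cell held 631 Mptx2 UMIs and gave 35.6% of the mean. Without the highest DBZ cells, the first 2 in rank, the change was 1.80, a comparison added after the data were seen. The share of cells counts each cell once, though 106 of the 187 DBZ cells and 17 of the 37 DMSO cells had exactly 1 Mptx2 UMI. Intervals of the Mptx2 shares do not overlap, but how often this held over all genes was not counted.

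The 2 highest Mptx2 cells were not defensin-rich. Their summed Defa levels were 26.1 and 13.5 per 10000, where the median DBZ cell under the threshold had 13.5. Their Mmp7 levels were 1.38 and 2.45. Under the threshold Mptx2 averaged 1.01 per 10000 with DBZ and 0.107 with DMSO, a change of 2.75. Without those 2 cells the DBZ mean there was 0.408 and the change 1.54. Inside defensin-rich cells it averaged 0.869 with DBZ and 0.0835 with DMSO, a change of 2.78. There 277 DBZ UMIs in 45 cells stood against 5 DMSO UMIs, all in 1 of 33 cells, and pooled UMIs gave 3.17 (1.93 to 4.80). In this class 5.76% of genes were higher by 1 or more and 2.18% lower by as much, so large changes were more common than over all cells. Of the Mptx2 mean 16.7% came from defensin-rich cells with DBZ, close to their 18.9% of the cells, and 33.2% without the 2 highest cells. With DMSO it was 2.68%, from the 1 positive cell. UMIs were in 19.1% (14.3 to 24.8%) of defensin-rich DBZ cells and 14.1% (12.0 to 16.4%) of those under the threshold. After thinning these were 8.09 and 8.35%. With the 2 cells the DBZ mean was thus higher outside than inside, and without them it was lower outside. Per 1000 Defa UMIs there were 0.623 Mptx2 UMIs inside and 78.4 outside with DBZ, and 0.0684 and 39.0 with DMSO.

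Pnliprp2 went the other way. In the DBZ library its level was 0 in the median cell and 25.8 in the highest, with a mean of 0.122 per 10000. In the DMSO library it was 0 in the median cell and 31.6 in the highest, with a mean of 0.347. The change was -1.21, and pooled UMIs (203 against 395) gave -1.27 (-1.52 to -1.02). Pnliprp2 UMIs were seen in 89 DBZ cells (7.17%, 5.80 to 8.75%) and 156 DMSO cells (16.1%, 13.9 to 18.6%), or in 3.30 and 9.61% after thinning. The intervals of the shares do not overlap, but how often this held over all genes was not counted. The highest cell gave 17.0% of the DBZ mean and 9.40% of the DMSO mean.

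The lower Pnliprp2 level held in both classes of cell. Under the threshold it averaged 0.10 per 10000 with DBZ and 0.328 with DMSO, a change of -1.33, where 1.05% of genes were lower by 1 or more. Inside defensin-rich cells it averaged 0.216 with DBZ and 0.893 with DMSO, a change of -1.83, from 98 and 51 UMIs. Pooled UMIs there gave -1.68 (-2.19 to -1.17), and UMIs were in 15.7% (11.3 to 21.0%) of 235 DBZ cells and 36.4% (20.4 to 54.9%) of 33 DMSO cells. Without the 5 highest cells of each library the change inside was -0.55. Within each library the mean was higher inside defensin-rich cells than outside them. Even so, these cells held 48.3% of Pnliprp2 UMIs with DBZ and 12.9% with DMSO, so most DMSO Pnliprp2 lay elsewhere.

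**Figure D3:**
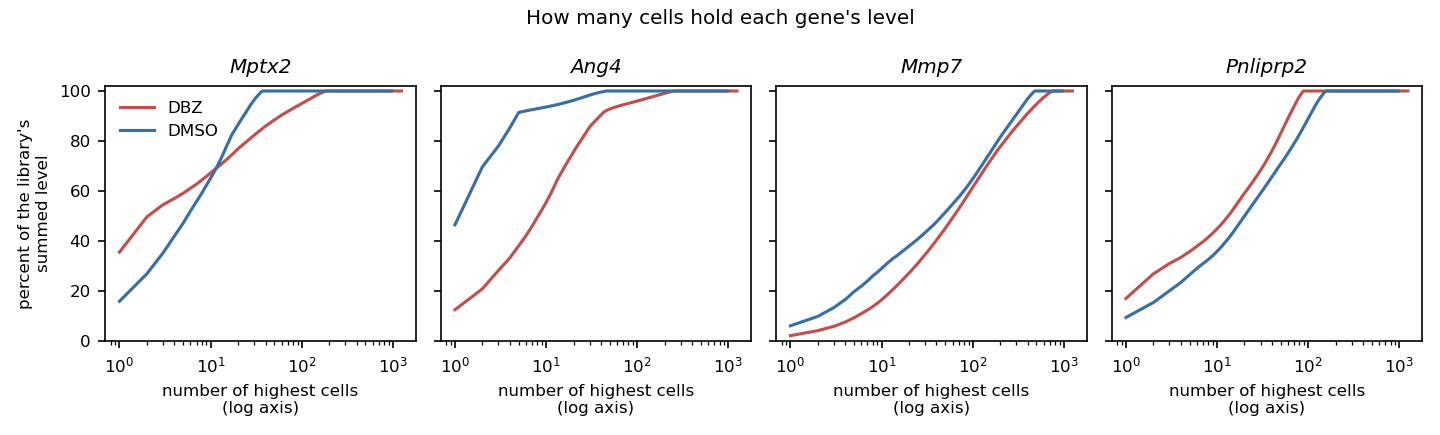
Percent of each library's summed level (vertical) held by its highest cells, against the number of cells counted from the highest (horizontal, log axis), for the DBZ (red) and DMSO (blue) libraries. The first DMSO cell holds 46.5% of Ang4 and the first DBZ cell 35.6% of Mptx2, whereas Mmp7 climbs slowly in both libraries, with 2.14 and 6.08% in the first cell.

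Clusters show where each gene lay. Cells of both libraries were grouped into 12 clusters, which are called here by their leading genes. The 4 members helped to form them, so these values are descriptions. Cluster 7 (Defa17, Defa3 and Ang4 leading) held 77 DBZ and 12 DMSO cells, and cluster 9 (Defa21 and Defa22 leading, with Hdc, the histamine-making enzyme) held 129 and 12. Ang4 averaged 28.2 per 10000 in cluster 7 with DBZ and 29.3 with DMSO, or 24.2 and 14.7 without the highest cell of each, the DMSO one at 190. In cluster 9 it averaged 0.860 with DBZ, or 0.401 without the cell at 59.5, and was not seen in 12 DMSO cells. Cluster 7 held 85.3% of all Ang4 UMIs of the DBZ library and 85.6% of those of the DMSO library. Besides cluster 7, the one DBZ cell at 196 per 10000 lay in cluster 10 (Reg4, Chgb and Chga leading, enteroendocrine-like), had a Defa level of 223, and lifted that cluster's Ang4 mean from 0.546 to 2.61.

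Mmp7 averaged 23.6 in cluster 7 with DBZ and 27.7 with DMSO, and each of the 77 and 12 cells had an Mmp7 UMI. In cluster 9 it averaged 1.65 and 0.977. The 10 highest Mmp7 cells of the DBZ library all lay in cluster 7, and 6 of the 10 highest of the DMSO library did. The libraries were compared in the 8 clusters where each had at least 10 cells. Mmp7 was higher with DBZ in 6 of the 8, each with a counting interval above 0, and lower in clusters 5 and 7. It had 2.16 against 0.815 in cluster 3 (Pmp22, Arl14 and Id1 leading, 1 defensin-rich cell). In cluster 6 (Ube2c and Nusap1 leading, mitosis genes as 7 of its top 10, 8 defensin-rich cells) it had 3.03 against 1.03. In cluster 5 (Nts and Ly6d leading) 2.21 stood against 3.73 in only 11 DMSO cells, or 1.19 without the cell at 29.1.

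With DBZ Mptx2 was highest in cluster 11 (Cyp2c55, Itln1 and Sox17 leading), which held 53 DBZ and 3 DMSO cells. It averaged 11.8 there, or 3.69 without the cell at 434, and UMIs were in 24.5% (13.8 to 38.3%) of cells. The cell at 172 lay there too, and these 2 cells held 631 and 421 of the cluster's 1085 DBZ Mptx2 UMIs. The high mean of this cluster thus rests on 2 cells. Cluster 11 held 58.9% of all DBZ Mptx2 UMIs with 4.27% of the cells. Cluster 3, a cluster of both libraries, averaged 1.52 with DBZ and 0.156 with DMSO (0.0463 without the highest cell), with UMIs in 25.4% (17.7 to 34.4%) of 114 DBZ cells and 2 of 63 DMSO cells. The enteroendocrine-like cluster, which gives a background, had Mptx2 UMIs in 9.47% (4.42 to 17.2%) of DBZ cells, or 6.32% after thinning against 16.7% in cluster 3 and 17.0% in cluster 11. In cluster 7 Mptx2 averaged 1.51 with DBZ, or 0.752 without the cell at 58.8, with UMIs in 24.7% (15.6 to 35.8%) of cells, or 10.4% after thinning. With DMSO it averaged 0.230, all from 1 of 12 cells. The highest DMSO mean of Mptx2 was 0.236 in cluster 1 (Gdf15 and Pmp22 leading), or 0.161 without the highest cell. Cluster 1 held 44.2% of the DMSO Mptx2 UMIs, and cluster 2 (Sprr1a and Reg3g leading) held 29.5%.

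Pnliprp2 in the DMSO library belonged mostly to cluster 0 (Sfrp5, Egr4 and Cited4 leading), which held 307 DMSO and 9 DBZ cells. Its mean there was 0.753 per 10000, 25.1% of cells had a UMI (20.3 to 30.3%), and the cluster held 60.8% of the library's Pnliprp2 UMIs with 31.7% of its cells. Of the 10 DMSO cells with the highest Pnliprp2, 8 were in cluster 0. Egr4, Egr2 and Arc, immediate early genes, are among the genes that lead this cluster. Of 18 immediate early genes 17 were lower in the DBZ library, and their summed level was 37.2 per 10000 against 71.3. The part of this in the Pnliprp2 difference was not tested. Its highest cluster mean was in cluster 7 in both libraries, with 0.553 for DBZ and 1.65 for DMSO, where 26 of 77 and 8 of 12 cells had a UMI. Cluster 7 held 42.4% of the Pnliprp2 UMIs of the DBZ library with 77 of its 1241 cells, and 10.1% of those of the DMSO library with 12 of its 968. In the DBZ library the 2 highest cells, at 25.8 and 14.9, lay in cluster 8 (Cyp2c55 and Notum among its leading genes). Pnliprp2 was lower with DBZ in 6 of the 8 clusters that could be compared, 3 of them with an interval below 0. Those 3 were cluster 7 (86 against 40 UMIs), cluster 3 (4 against 10) and cluster 9 (8 against 6). In cluster 9 the 6 DMSO UMIs lay in 1 of 12 cells. Cluster 0, with 9 DBZ cells, was not among the 8.

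**Figure D4:**
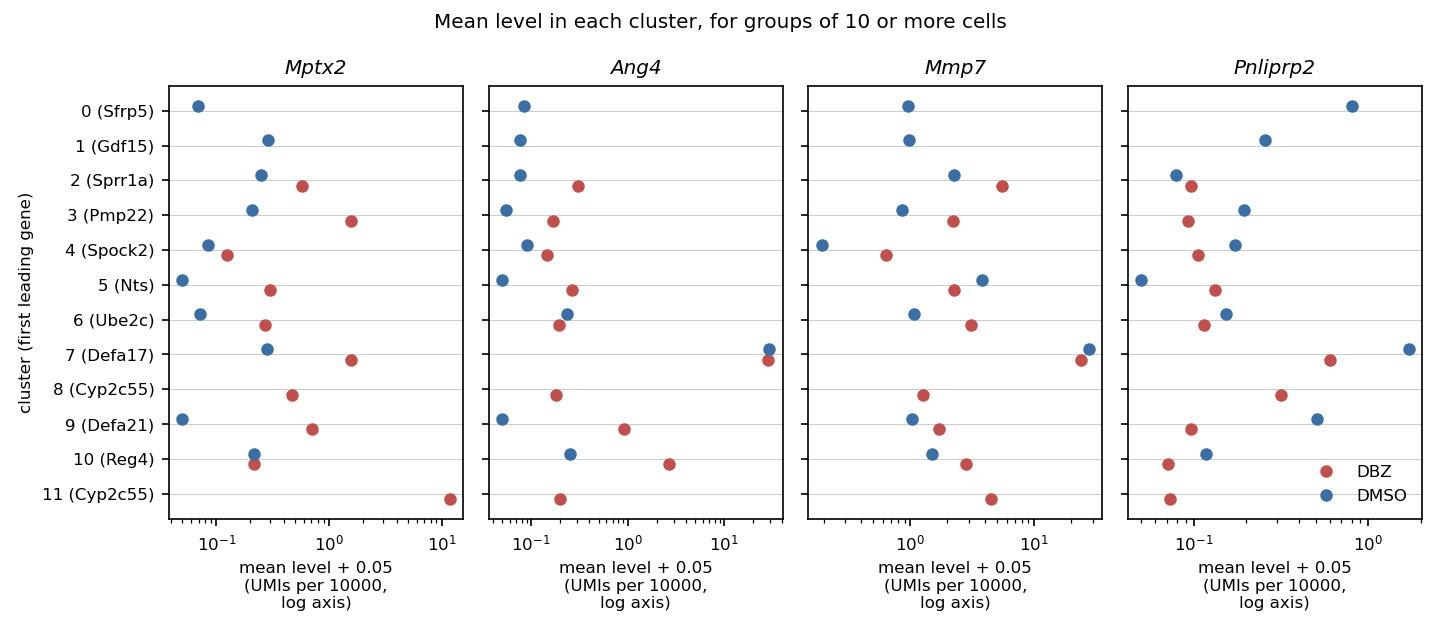
Mean level of each gene (UMIs per 10000 plus 0.05, log axis) in each cluster for DBZ (red) and DMSO (blue) cells, shown where the library had at least 10 cells in the cluster. Ang4 and Mmp7 peak in cluster 7 in both libraries (for Ang4 at 28.2 and 29.3, or 24.2 and 14.7 without the highest cell of each). Mptx2 peaks in DBZ cells of cluster 11, where the cells at 434 and 172 hold most of its UMIs. Pnliprp2 is highest in DMSO cells of clusters 7 and 0.

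Defensin-rich cells were of more than 1 kind, and Ang4 and Mmp7 differed between them. Cells with more Defa24 than Defa22 UMIs numbered 112 with DBZ and 15 with DMSO, and the rest 123 and 18. Ang4 averaged 22.2 and 23.3 per 10000 in the first kind and 0.407 and 1.68 in the rest. Of the DMSO value in the rest, 29.8 in 1 of 18 cells was nearly all. Mmp7 averaged 18.3 and 26.5 in the first kind and 1.44 and 1.22 in the rest. In the rest it was thus near the 1.97 and 1.04 of cells under the threshold. Pnliprp2 averaged 0.393 and 1.09 in the first kind and 0.0542 and 0.729 in the rest. Mptx2 averaged 1.30 and 0.184 in the first kind and 0.472 and 0 in the rest. Chgb (chromogranin B, of hormone granules) ran the other way, with 0.853 and 0.683 in the first kind and 7.91 and 5.02 in the rest. The split reads 2 Defa genes and no member, but Ang4 was already known from earlier results to lead a cluster of the first kind.

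Along the Defa level itself, the mean of Ang4 was higher in each bin above the threshold than in those below it. In DBZ cells with summed Defa of 10 to 30 per 10000 its mean was 0.132, at 30 to 100 it was 0.308, at 100 to 300 it was 7.18, at 300 to 1000 it was 3.55 and at 1000 or more it was 17.5. Without the highest cell of each bin the last 3 were 3.06, 1.86 and 14.6, the first of them having held the cell at 196. The share of cells with an Ang4 UMI rose already below the threshold. It was 15.2, 27.3, 31.9, 30.8 and 55.5% over these bins, or 6.19, 15.9, 21.3, 21.8 and 44.5% after thinning. Mmp7 climbed in smaller steps over the same bins, from 1.91 through 5.45, 6.28 and 6.81 to 12.8. Its level was thus higher already in the 44 DBZ cells between 30 and 100 per 10000. Mptx2 had 1.22, 0.164, 0.0822, 1.24 and 0.943, but the first value holds the cells at 434 and 172 and is 0.453 without them, and the fourth holds the cell at 58.8 and is 0.491 without it. The share of cells with an Mptx2 UMI was 14.5, 13.6, 8.51, 14.1 and 27.3% over these bins, or 8.59, 6.82, 6.38, 6.41 and 10.0% after thinning. Pnliprp2 had 0.0581, 0.447, 0.0691, 0.101 and 0.360, where the second value holds the cell at 14.9 and is 0.111 without it. The share of cells with a Pnliprp2 UMI was 25.5% in the last bin and 4.92 to 10.6% in the others named here.

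Within defensin-rich cells Ang4 and Mmp7 went together. The Pearson r of their deposited log values was 0.61 over 235 DBZ cells and 0.41 over 33 DMSO cells. Under the threshold it was 0.02 and 0.00, over 1006 and 935 cells. In the DBZ library 85 of the 100 defensin-rich cells with Ang4 also had Mmp7, and in the DMSO library 11 of 11 did. Every other pair of members had an r of at most 0.35 in any class, and under the threshold the highest was 0.07 (Mptx2 and Mmp7, DBZ cells). Cells of a library share depth and free RNA, so these values are given as descriptions only.

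The genes most like each member over the 1241 DBZ cells, among 10173 genes in at least 5% of them, differed between the members. For Ang4 they were Defa3 (r 0.69, and 0.66 over DMSO cells), Defa17 (0.65 and 0.61), Guca2a, the guanylin gene (0.64 and 0.53), Spink4, a goblet cell gene (0.63 and 0.50), and Defa26 (0.61 and 0.55). For Mmp7 they were Tff3, the trefoil peptide of goblet cells (0.56 and 0.38), Defa24 (0.54 and 0.34), Defa17 (0.53 and 0.31), Rnase1, a secreted ribonuclease (0.51 and 0.26), and Defa3 (0.48 and 0.32). For Mptx2 the highest r was 0.21 (Cyp2c55, a cytochrome P450), with 0.01 over DMSO cells. B4galnt2 (0.17), Agr3 (0.16), Lgals2 (0.15) and Agr2 (0.15) followed, all too weak to count as likeness. For Pnliprp2 the DBZ cells gave Defa3 (0.29), Gm15284 (0.28), Defa26 (0.25), Defa17 (0.25) and Bhlha15 (0.24). Over the DMSO cells Pnliprp2 was most like Pnliprp1 (0.29), among 9925 genes. Notum, a secreted Wnt inhibitor (0.21), Sypl (0.20) and Gm15284 (0.20) were also among its 5 most alike genes there. Each of these is also weak. The r with the summed Defa level was 0.47 and 0.39 for Ang4, 0.37 and 0.26 for Mmp7, 0.17 and 0.13 for Pnliprp2, and 0.06 and -0.01 for Mptx2, in DBZ and DMSO cells.

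The relatives of the members did not share their changes in full. All 5 genes detected around the ribonuclease family of Ang4 were higher with DBZ, with a median of 0.82 beside 0.10 for all genes, of which 63.5% were higher, and 2 of the 5 passed a change of 1. Counts of higher genes in the lists below read against that 63.5%. These were Rnase1 (0.405 against 0.137 per 10000, 1.28) and Ang, angiogenin itself (0.344 against 0.135, 1.09). Rnase4 had 0.82, Plxnb2, a receptor for angiogenin, 0.55, and Rnh1, the ribonuclease inhibitor, 0.19. Inside defensin-rich cells 2 of these 5 were higher and 3 lower, with a median of -0.21. All 6 metalloproteinases detected beside Mmp7 were higher, with a median of 0.35 and none past 1. Mmp15 had 0.87, Mmp11 0.26, Mmp14 0.21 and Mmp20, the neighbour of Mmp7, 0.07 with 15 and 9 UMIs, while Mmp16 and Mmp24 were listed at 0 in DMSO cells. Among 4 detected genes listed as inhibitors or modulators of such proteases, Spock2 had 1.77 (3.33 against 0.943), Timp2 0.64, Timp1 0.25 and Timp3 -1.01 (0.216 against 0.487).

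Mptx1, the closest relative of Mptx2, was lower with DBZ where Mptx2 was higher. It averaged 0.0182 per 10000 with DBZ and 0.103 with DMSO, a change of -1.16. Of the DMSO mean 54.6% came from 1 cell at 54.4, and the mean without it was 0.0468. Of the other pentraxins, Nptx1 had 0.83, Nptx2 0.64 and Nptxr 0.39, and Crp was listed at 0 in DBZ cells. Of 11 detected lipases and partners of Pnliprp2, 4 were higher and 7 lower, with a median of -0.21 and none past 1 in either direction. Pnliprp1 had -0.31 (0.0986 against 0.134), Lipg -0.48, Lipc -0.28, Lipe -0.24, Mgll -0.23, Liph -0.21 and Daglb -0.01. Clps, the cofactor of pancreatic lipase, had 0.54, Lipa 0.14, Dagla 0.12 and Pnpla2 0.09. Clps nevertheless resembled Pnliprp2 inside defensin-rich cells, with 3.47 against 12.7 per 10000 (-1.86). Of the 23 pancreatic acinar genes listed, 4 were detected (2 higher, 2 lower, median 0.11), and their summed level was 1.37 per 10000 with DBZ and 1.27 with DMSO.

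The 11 Defa genes were all higher over all cells, 10 of them by 1 or more, with a median of 2.41. Inside defensin-rich cells 5 were higher and 6 lower, with a median of -0.0045. Ang4 with 2.22 and -0.09 lay near these medians, whereas Mmp7 with 1.20 and -0.42 lay below both. Of 24 other Paneth genes in the table, which include Mptx1 and Clps, 16 were higher and 8 lower (6 and 3 by 1 or more; median 0.46), a share higher near the 63.5% of all genes. The most expressed were Gm15308, a defensin-related gene (60.6 against 12.6, 2.26), and Itln1, intelectin (17.7 against 15.2, 0.22). Gm15315 had the largest change that can be computed, 2.94 (1.61 against 0.166), and Gm14851 was listed at 0 in DMSO cells. Lyz1 and Lyz2, lysozyme genes that were also on this list, had no row here. Of 21 regulators of Paneth fate and secretion 13 were higher and 8 lower, again near the share of all genes, none by 1, with a median of 0.25, or 0.01 over those seen in at least 10% of cells. Ctnnb1 (beta-catenin) had 0.84 (7.05 against 3.90), Sox9 -0.23 (2.78 against 3.28), Bhlha15 0.86 and Klf5 -0.85. Of 21 Wnt targets other than Mmp7 15 were higher and 6 lower, 1 by 1 or more in each direction, with a median of 0.32. Wif1 had 1.31, Notum 0.81 (14.9 against 8.44), Nkd1 0.58 and Ccnd1 -1.32. The change of Mmp7 under the threshold, 0.88, stood beside a median of 0.43 for these targets in the same cells.

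Markers of other cells were read beside these values. Of 12 detected goblet genes 9 were higher and 3 lower, 5 by 1 or more, with summed levels of 46.2 and 26.6 per 10000, led by S100a6 (23.5 against 21.1, 0.15), Tff3 (14.2 against 1.71, 3.02) and Fcgbp (2.13). All 30 enteroendocrine genes were higher, 27.6 against 7.49 in sum. Of 14 enterocyte genes 5 were higher, of 5 tuft genes 3, of 14 stem cell genes 4 and of 22 mitosis genes 0. Of 16 immune markers 1 (Cd68) was in the table, at 0.0939 and 0.132, and of 10 fibroblast markers 2 (Vim and Acta2). The part of goblet and enteroendocrine transcripts in the changes of the 4 members was not tested. By these markers Ang4 and the high end of Mmp7 lay in cells that carry Paneth genes, 8 of the top 10 genes of cluster 7 being on the Paneth lists, as did 42.4% of the Pnliprp2 UMIs of the DBZ library. Most Pnliprp2 UMIs of the DMSO library lay elsewhere, as did most Mptx2 UMIs of both libraries.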

How the data were processed

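Cells were captured on a droplet chip aiming at 3000 per sample, and the sequenced transcript read had 91 bases, per the labels' protocols. Per the submitters' processing notes, Cell Ranger 2.1.1, the mouse build mm10 and an unstated version of Seurat were used. How cells and genes were filtered is not given in the sources used here.

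For both libraries the authors deposited values on a natural log scale in 1 table. In each cell exp(value) - 1 summed to 10000, and all 7553435 values above 0 were whole UMIs within a tolerance of 0.01, so levels and UMIs were read back from them. No count model was run. Columns starting CTRL and GSI were read as DMSO and DBZ from the meaning of the names. A gene at 0 in a whole library (282 genes for DBZ, 723 for DMSO) may have been filtered and is written as listed at 0. Totals were 16168229 UMIs (DBZ, cells from 5187 to 59745) and 13083018 (DMSO, 5241 to 56915).

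Pooled UMI ratios have exact conditional 95% intervals and shares exact Clopper-Pearson intervals. Thinning to 5000 UMIs left out 0 cells. Clusters came from scanpy 1.11.5 and igraph 0.11.9 (2000 variable genes, 30 components, 15 neighbours, Leiden resolution 1, seed 0). Scrublet at an expected 5% called 2 DBZ cells (0.161%) and 6 DMSO cells (0.620%) doublets, too few to show that it worked. The code was tested on simulated data.

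The members, gene lists and tests were chosen with earlier results of these data known. Genes named are the members, the 5 most like each, detected family relatives, and the 2 most expressed and 2 most changed of each list described; some genes under this rule are not reported here. Leading genes of clusters, Chgb, Clps inside defensin-rich cells and immediate early genes by name were chosen after their values were seen. Alternatives covered pseudocount, pooling, thinning, leaving out high or deep cells, doublets, the threshold, the denominator, gene filters and cluster resolution. Values by Defa level without the highest cells, the Mptx2 values without 2 cells and motif positions from the GENCODE start were added after the data were seen.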

Additional observations from a re-analysis of the deposited data

How the results depend on the processing

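Of 134 alternative values of the 12 changes (4 genes in all cells, under the threshold and inside defensin-rich cells), 130 kept their sign. The 4 others were inside defensin-rich cells: Ang4 turned to 0.12 after thinning, 0.66 without the highest cell of each library and 4.63 without the 5 highest, and Mmp7 to 0.63 without the 5 highest. The 33 DMSO cells limit that class, since 5 cells are a larger part of them than of the 235 DBZ cells. No paired analysis was possible because each group has 1 library, and for the same reason no replicate could be left out.

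A pseudocount of 0.01 gave 3.09 for Mptx2 in all cells, 3.12 for Mptx2 under the threshold and 1.83 for Ang4 under it. With 0.5 the changes in all cells were 1.29 (Mptx2), 1.52 (Ang4), 1.00 (Mmp7) and -0.45 (Pnliprp2), those under the threshold 1.31, 0.26, 0.67 and -0.46, and those inside 1.23 for Mptx2 and -0.96 for Pnliprp2. Pooled UMIs gave Mptx2 3.53 and 3.61 (all cells, under the threshold), Ang4 2.06, 2.19 and -0.26 (inside), and Pnliprp2 -1.76 under the threshold. Thinning gave 2.41 for Ang4 in all cells and, inside, -0.28 for Mmp7 and -2.53 for Pnliprp2. Without the highest cell of each library Mptx2 had 2.29 and 2.17 (all cells, under the threshold), Ang4 2.81 (all cells) and Mmp7 -0.19 (inside). Without the 5 highest Mptx2 had 2.09 and 1.91, Ang4 4.00 and Mmp7 1.37 in all cells, and Pnliprp2 -0.55 inside. Without the 2 highest DBZ cells alone, chosen after seeing the data, Mptx2 had 1.80 and 1.54. Dividing by UMIs outside Defa and Gm rows gave Ang4 2.00 and Mmp7 1.36 in all cells, and -0.39 and -0.29 inside. A threshold of 30 gave Mmp7 0.77 outside and -0.26 inside. A threshold of 300 gave Ang4 2.1 and -0.30, and defensin-rich clusters in place of the threshold gave Ang4 1.94 and -0.40 and Mmp7 -0.54 inside. The cause of these shifts was not tested.

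Shares of cells with at least 2 UMIs in DBZ and DMSO cells were 6.53 and 2.07% for Mptx2, 6.61 and 0.930% for Ang4, 40.5 and 26.2% for Mmp7, and 2.74 and 7.02% for Pnliprp2. Shares of cells with any UMI of the gene left after thinning were, in the same order, 8.30 and 2.17%, 11.3 and 2.17%, 43.9 and 29.4%, and 3.30 and 9.61%. The order of the libraries was the same in each.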

Other observations

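Among the 11 named Defa genes, inside defensin-rich cells, Defa26 was lower with DBZ (1.57 against 3.57 per 10000, a change of -1.16), while Defa21, Defa22, Defa5, Defa17 and Defa24 lay between -0.06 and 0.04. How reads were split among these closely alike genes is uncertain. Outside defensin-rich cells the Defa genes did not keep 1 ratio to each other: per Defa UMI, Defa24 was 1.54 (1.5 to 1.57) times as frequent outside as inside in the DBZ library, and Defa22 0.575 (0.551 to 0.601) times. Ang4, at 0.937, lay between them. The 2 DBZ cells with the highest Mptx2 held 8.25 and 5.72 per 10000 of Itln1, below that library's mean of 17.7, and no Mki67 UMI.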
